A study of Caenorhabditis elegans with 2 samples.

Results

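The regions described are the 295 ISW-1 binding peaks on chromosome X of the nematode Caenorhabditis elegans, out of 2143 peaks on all chromosomes. They are every row for X in the conservative thresholded list that the authors made from both replicates, on the ce11 build, with no further choice among them. That list is itself thresholded on reproducibility, and the ranked X peaks that it leaves out have a median signal of 46.06, against 163.7 for those it holds. Of the 295 peaks, 12 overlap another one in pairs with different summits, so the peaks make 289 separate regions. The other thresholded list of the series holds 302 peaks on X, the list of replicate 1 holds 291 and the list of replicate 2 holds 239.

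ISW-1 was located by ChIP-seq, in which the DNA bound to a protein is precipitated with an antibody and sequenced. The animals were whole L1 larvae of strain OP181, aged 6 hours and starved after bleaching. They carried the integrated transgene wgIs181, in which isw-1 is fused to TY1, EGFP and 3xFLAG tags and which also holds unc-119(+), in an unc-119(ed3) background. Chromatin was precipitated through the EGFP tag, with an anti-GFP antibody. There are 2 biological replicates of this 1 condition, with no other genotype or stage to set against them. The tagged protein came from an added transgene, nothing in the labels says that the animals' own isw-1 was removed, and the sex of the larvae was not recorded. A whole larva mixes many cell types, so a peak cannot be assigned to one of them. The larvae's tissue could not be checked with marker genes, since no expression was measured.

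ISW-1 is the ATPase of ISWI-type remodelling complexes, which slide and space nucleosomes and act on the chromatin at gene starts. The X chromosome of C. elegans is the target of a condensin-based dosage compensation complex, which is loaded in hermaphrodites at recruitment sites on X and lowers transcription of X genes there. Several of those recruitment sites are known to carry a sequence called MEX, for motif enriched on X, whose core is GCGCAGGG.

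The MEX core stood within 100 bp of 14 X summits, and a peak is said to hold it in that case only. Sequences around it are shown first because it was at the highest intergenic peak and the highest intronic peak. Each line below gives the core in capitals with 9 bases on either side, read 5′ to 3′ on the strand that holds the core, from the RefSeq sequence of WBcel235, which is ce11. The site nearest the summit is given for the 8 highest peaks that hold the core, and for the 2 lowest, and this choice was made after the values were seen.
X peak 4, near W02H3.3, chrX:11094217-11094242, minus strand: gaaccattcGCGCAGGGacacctcac
X peak 8, near F20B6.9, chrX:4209257-4209282, minus strand: gccgctatcGCGCAGGGacacctctt
X peak 9, in an intron of mom-1, chrX:6296567-6296592, plus strand: ataggtatcGCGCAGGGaagatttac
X peak 10, in an intron of Y41G9A.17, chrX:2997114-2997139, minus strand: aaatttatcGCGCAGGGaggaagtag
X peak 11, upstream of xol-1, chrX:8036426-8036451, plus strand: ttttccatcGCGCAGGGaacccttcg
X peak 12, upstream of nspc-17, chrX:14525891-14525916, minus strand: ttgcctatcGCGCAGGGacagatgtg
X peak 19, near gtr-1, chrX:806665-806690, plus strand: gcgattatcGCGCAGGGgtgtttgtt
X peak 23, near F22H10.2, chrX:16682163-16682188, minus strand: gaaaacatcGCGCAGGGaacatcaaa
X peak 132, near T24D8.6, chrX:2364890-2364915, minus strand: aataattaaGCGCAGGGatatatagt
X peak 245, near dpy-23, chrX:4395606-4395631, plus strand: aggagacaaGCGCAGGGagaactggt

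X peaks are numbered by signal from the highest. In the 8 highest the core followed the bases tc, and in 7 of them the letters were atc, while in the 2 lowest it followed aa. The same core with its surroundings can be read in the 101 bases around the summits of the highest intergenic peak and the highest intronic peak, printed on the plus strand with the core, on either strand, in capitals.
X peak 4, intergenic, chrX:11094151-11094251: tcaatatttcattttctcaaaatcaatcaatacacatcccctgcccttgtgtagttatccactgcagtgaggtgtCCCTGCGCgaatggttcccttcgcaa
X peak 9, intron of mom-1, chrX:6296543-6296643: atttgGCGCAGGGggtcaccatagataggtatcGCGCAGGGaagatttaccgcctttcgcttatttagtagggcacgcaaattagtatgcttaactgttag

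The highest promoter peak and X peak 28, the highest with its summit within 100 bp of a tRNA start, are shown for comparison, since neither holds the core. So is X peak 3, whose capitals mark TGCGTCTC on the minus strand, the commonest of the short sequences searched at X summits.
X peak 1, promoter of puf-9, chrX:5841263-5841363: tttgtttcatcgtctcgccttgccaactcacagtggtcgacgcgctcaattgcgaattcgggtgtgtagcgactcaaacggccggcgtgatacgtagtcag
X peak 3, promoter of hsp-3, chrX:6092132-6092232: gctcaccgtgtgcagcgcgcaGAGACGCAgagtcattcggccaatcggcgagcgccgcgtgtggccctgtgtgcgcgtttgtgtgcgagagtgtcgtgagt
X peak 28, beside tRNA gene F41D9.t3, chrX:8404410-8404510: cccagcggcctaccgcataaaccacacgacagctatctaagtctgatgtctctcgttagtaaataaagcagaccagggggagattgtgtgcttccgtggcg

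The 20 highest X peaks were 11 in promoter windows, 7 intergenic and 2 in introns, whereas 19 of the 20 highest autosomal peaks were in promoter windows and 1 was intergenic. A promoter window runs from 1000 bp upstream to 500 bp downstream of the outermost start of a protein-coding gene in Ensembl release 115, and the signal is the authors' linear enrichment value for a peak, which has no unit and is compared only within a list. The deposited lists hold no read counts, so sequencing depth is unknown and no counting error can be put on a single signal value.

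The highest X peak lay 279 bp upstream of puf-9 (WBGene00004245), which encodes a Pumilio-family RNA-binding protein. Its signal was 1044 in the conservative list, 641.2 in replicate 1 and 400.2 in replicate 2. Next came rpl-11.2 (WBGene00004423), a protein of the large ribosomal subunit, at 841.3, with 518.4 in replicate 1 and 329.8 in replicate 2. The promoter of hsp-3 (WBGene00002007), a chaperone of the endoplasmic reticulum, followed at 801.3, with 483.0 and 333.1 in replicates 1 and 2. These 3 were the highest X peaks in the conservative list and in each replicate's thresholded list, and in that of replicate 2 hsp-3 stood slightly above rpl-11.2. The other promoter peaks among the first 12 were those of eef-1A.2 (translation elongation factor, 699.5), serp-1.1 (669.4), epn-1 (the endocytic adaptor epsin, 657.3) and nspc-17 (617.2).

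Few of the tallest peaks of the series were on X, which held 3 of the 100 highest peaks, 21 of the 250 highest and 47 of the 500 highest. Of all peaks in the conservative list, 13.8% were on X, which makes up 17.7% of the genome. X had 16.65 peaks per Mb and the autosomes together 22.39, with 14.05 on V. Per 100 protein-coding genes X had 10.8 peaks and the autosomes together 10.72, with 5.89 on V and 15.95 on III. X was thus lower by length and close to the autosomes by gene number. The median signal of X peaks was 163.7, below the medians of the 5 autosomes, which ran between 188.6 on II and 204.9 on III. The same order held in each replicate's own list, with 105.0 on X against 123.8 to 132.3 in replicate 1, and 72.53 on X against 80.06 to 90.34 in replicate 2. The lower median was found in promoter summits, at 176.9 on X and 223.4 on the autosomes, while intergenic summits had medians of 161.4 on X and 162.5 on the autosomes and intronic ones 147.5 on X and 151.6 on the autosomes.

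**Figure D1:**
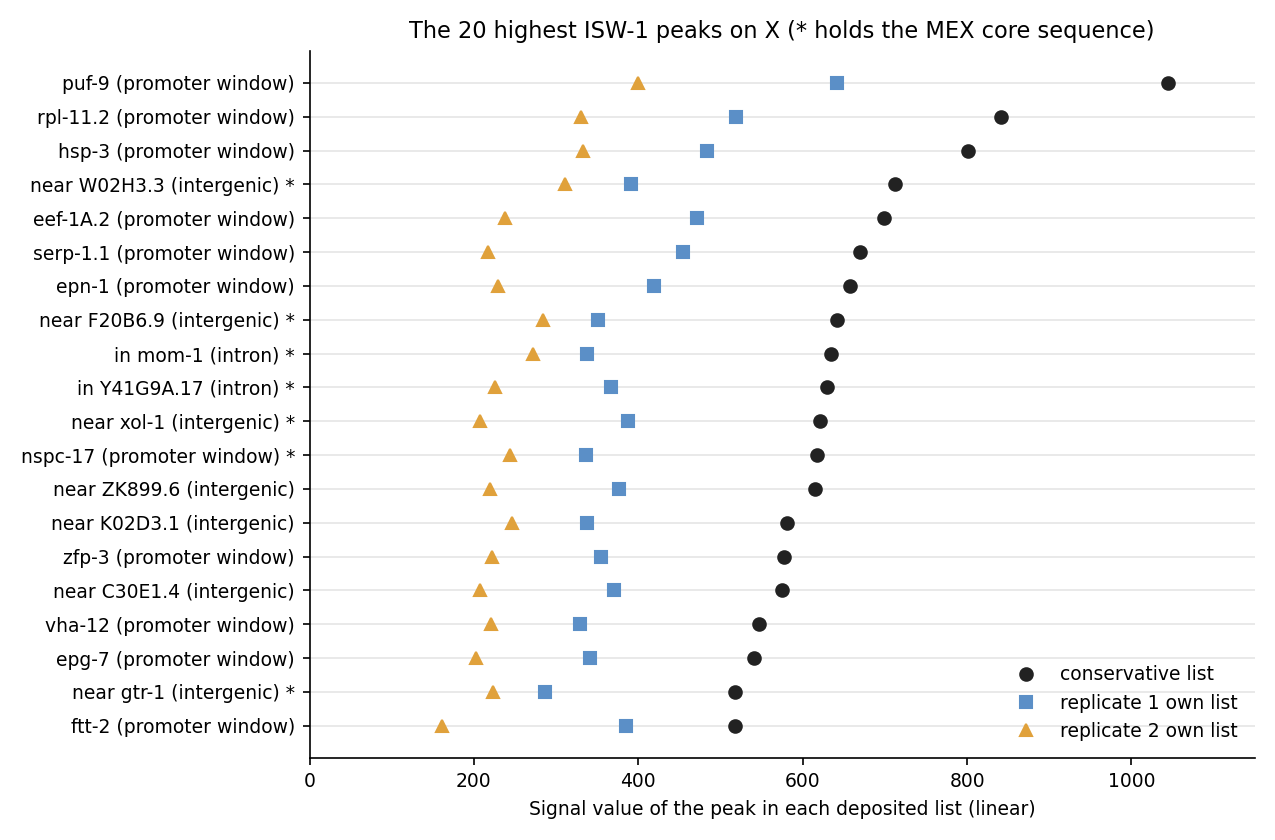
Signal of the 20 highest X peaks in the conservative list (circles) and in the lists of replicate 1 (squares) and replicate 2 (triangles), with the gene whose promoter window holds the summit, the gene around an intronic summit, or the nearest gene start. Signals run between 517.3 and 1044 in the conservative list, and 7 of the 20 peaks, marked with an asterisk, hold the MEX core.

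A smaller share of X summits than of autosomal summits lay at promoters, and a larger share lay between genes. On X, 145 of 295 summits (49.2%, 95% Wilson interval 43.5 to 54.8) were in a promoter window, against 68.9% of 1848 autosomal summits (66.7 to 71.0), and the single autosomes ran between 64.3% on IV and 71.8% on II. Intergenic summits made up 97 of 295 on X (32.9%, 27.8 to 38.4) and 15.96% on the autosomes (14.4 to 17.7), where the single chromosomes ran between 14.4% on II and 21.4% on IV. Introns held 52 X summits (17.6%, 13.7 to 22.4), against 14.1% of autosomal summits (12.6 to 15.7). The intervals overlap for introns and do not for promoter and intergenic summits. A single X summit lay in a coding exon and none in an annotated untranslated region. Over all chromosomes the shares were 66.2% in promoter windows, 18.3% intergenic and 14.6% in introns. The intervals cover only the number of summits, which are not independent replicates, and no test between chromosomes was made.

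The same difference appeared in each replicate's own list. Promoter windows held 51.2% of X summits and 69.2% of autosomal summits in replicate 1, and 51.9% of X summits and 70.9% of autosomal summits in replicate 2. Intergenic summits were 32.0% on X and 15.7% on the autosomes in replicate 1, and 33.5% on X and 15.3% on the autosomes in replicate 2. Without the 14 peaks that hold the MEX core, 50.5% of the remaining 281 X summits were at promoters and 31.7% were intergenic.

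**Figure D2:**
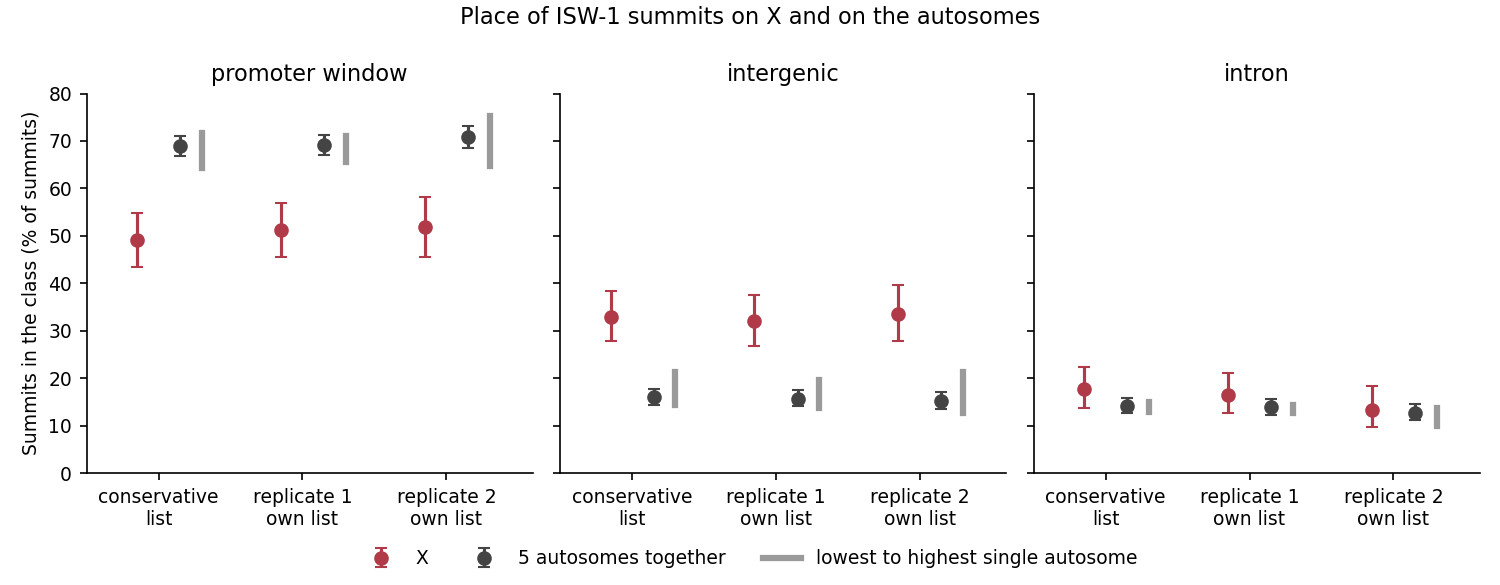
Share of ISW-1 summits in promoter windows, between genes and in introns (percent of summits), on X (red) and on the 5 autosomes together (black) with 95% Wilson intervals, and the lowest and highest single autosome (grey bars), in the conservative list and in each replicate's list. The X share stands below every single autosome for promoters and above every single autosome for intergenic summits in all 3 lists.

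X is also built differently from the autosomes, and those values stand beside the shares. Promoter windows cover 21.9% of the bases of X and 27.4% of the bases of the autosomes. Intergenic sequence outside those windows makes up 32.2% of X, close to its 32.9% of X summits, and 23.4% of the autosomes, where 15.96% of summits were intergenic. X has 154.1 protein-coding genes per Mb and the autosomes 208.9, and the median spacer between neighbouring protein-coding genes is 1793 bp on X and 818 bp on the autosomes. The part of gene spacing and base shares in the summit shares of X was not tested.

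The genes on either side of the X summits were also arranged differently. Of the 235 X summits outside genes, 108 (45.96%) lay between divergently transcribed genes, 110 (46.8%) between genes in tandem and 17 (7.23%) between convergent genes. Among 1410 autosomal summits outside genes, 58.7% were between divergent genes, 39.4% between tandem genes and 1.99% between convergent genes. How all neighbouring genes of X and of the autosomes are arranged was not counted, so this is not given as a trait of the summits. The median spacer around those summits was 3664 bp on X and 1083 bp on the autosomes. A gene start lay over 5 kb away for 26 X summits (8.81%) and 6.06% of autosomal summits, and the farthest on X was the exonic summit in pks-1, which encodes a large polyketide synthase, 15188 bp from the nearest start.

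At promoters, X summits sat upstream of the start and usually served a single gene. The median position was 240 bp upstream on X (quartiles 479 and 131 bp upstream) and 175 bp upstream on the autosomes (298 and 92 bp). On X, 139 of 145 promoter summits (95.9%) lay upstream of the nearest start, and 92.8% did so on the autosomes. A single gene claimed the summit in 130 cases on X (89.7%) and in 55.7% on the autosomes, and 14 X summits (9.66%) were shared by a pair of genes, against 41.2% on the autosomes. How often promoter windows of neighbouring genes overlap on X and on the autosomes was not counted.

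The promoter share was lower among lower peaks, on X as on the autosomes. With the X peaks ordered by signal and divided into 4 equal parts, promoter windows held 58.1%, 51.4%, 48.6% and 38.4% of summits from the highest part to the lowest, against 81.6%, 75.3%, 62.8% and 55.8% of autosomal summits. The intergenic share of X stayed between 32.4% and 34.2% in the 4 parts, while that of the autosomes ran between 9.74% in the highest part and 22.1% in the lowest. Introns held 8.11% of the highest part of the X peaks and 27.4% of the lowest.

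Most X peaks were found in both replicates. Of the 295 peaks, 249 (84.4%) overlapped the list of replicate 1 by at least 1 bp, beside 86.04% of autosomal peaks and 85.8% of all peaks. With replicate 2, 216 X peaks (73.2%, interval 67.9 to 77.9) overlapped, beside 78.1% of autosomal peaks and 77.5% of all peaks. Both lists held 200 X peaks (67.8%), beside 72.4% on the autosomes and 71.8% over all peaks, and 30 X peaks (10.2%) were in neither list, beside 8.23% on the autosomes and 8.49% over all peaks. In the lists ranked without a threshold, all 295 X peaks overlapped a peak of each replicate. Of autosomal peaks, 99.73% did so in replicate 1 and 99.57% in replicate 2. The conservative list was made from both replicates, so this overlap is not separate support.

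Peaks missing from one or both thresholded lists were lower. X peaks in both lists had a median signal of 211.8, those in replicate 1 alone (49 peaks) 116.0, those in replicate 2 alone (16 peaks) 104.2, and those in neither 93.44. The highest 5 of the 30 in neither list had signals of 145.2, 121.4, 113.8, 110.1 and 106.8. The first lay between tbx-41 and B0294.3, the second in an intron of sym-3, the next between aakg-4 and T01B6.1, then one in the promoter windows of Y34B4A.7 and mtm-5, and the last in an intron of ZK154.6. Intronic X peaks were in both lists in 29 of 52 cases (55.8%), promoter ones in 71.0% and intergenic ones in 69.1%.

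For the 200 X peaks in both lists the signals of the replicates had a Spearman correlation of 0.88 across peaks, and the 1338 autosomal peaks had 0.88. These peaks share libraries and were all selected for reproducibility, so this is a description. The signal of replicate 1 was a median of 1.69 times that of replicate 2 on X and 1.72 times on the autosomes. Of the 20 highest X peaks of replicate 1, 17 overlapped one of the 20 highest of replicate 2.

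**Figure D3:**
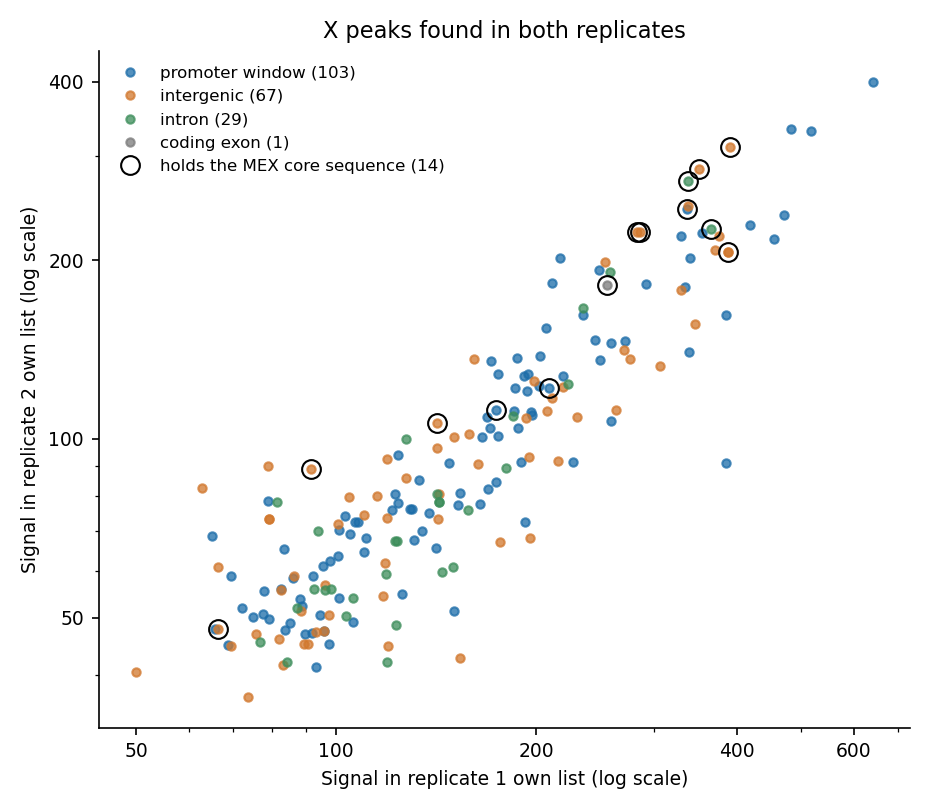
Signal in the list of replicate 2 against signal in the list of replicate 1 (both log scales) for the 200 X peaks that overlap a peak in each, coloured by class. Black circles mark the 14 with the MEX core within 100 bp of the summit. Promoter, intergenic and intronic peaks lie along the same band, and 11 of the 14 circled peaks belong to the 74 highest X peaks.

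The MEX core was at X summits and at no autosomal summit of the conservative list. It lay within 100 bp of 14 of 295 X summits (4.75%, interval 2.85 to 7.81), against 0 of 1848 autosomal summits, which allows a share of up to 0.162%, and over all summits the share was 0.653%. The search covered both strands, so the core and its reverse complement CCCTGCGC both counted. In windows of the same length centred 500 bp to either side of the X summits, 1 of 590 held it (0.169%), and 0.0732% of equal windows centred 150 bp upstream of all X gene starts and 0.0851% of equal windows tiled along X did.

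The core occurs 81 times on X and 233 times on the autosomes, or 4.57 times per Mb on X and 2.82 times per Mb on the autosomes. Within 100 bp of a summit were 18 of the 81 X occurrences (22.2%) and none of the 233 autosomal ones. Anywhere within a conservative peak were 20 X occurrences (24.7%) and 3 autosomal ones (1.29%). Where the core followed TC, as in the lines printed for the 8 highest peaks, 12 of 19 occurrences on X (63.2%) and 0 of 6 on the autosomes were at a summit. Those peaks are among the occurrences counted, so the share describes them and is not separate support. With C before the core, whatever the base before that, 14 of 33 occurrences on X (42.4%) and 0 of 44 on the autosomes were at a summit. With any base other than C before it, 4 of 48 occurrences on X (8.33%) and 0 of 189 on the autosomes were.

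The peaks with the core were among the tallest on X. They made up 6 of the 12 highest and 11 of the 74 highest, with signals from 105.5 to 712.6. Their median was 510.8, against 159.1 for the other 281 X peaks. Over whole peaks the core was in 5.76% of X peaks, so some of the 281 have it farther from the summit. Among these is X peak 163, with signal 151.6, which overlaps X peak 11. By the replicate peaks that they overlap, the 14 peaks with the core had medians of 284.8 in replicate 1 and 214.9 in replicate 2. The other conservative X peaks that overlap a replicate peak had 118.9 and 75.48. All 14 were in both replicates' lists. Among X peaks outside promoters, the 11 with the core had a median of 517.9 and the 139 without it 148.2. The median distance of the 18 core sequences from the summit was 30.5 bp.

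Of the 14 peaks, 8 were intergenic, 2 intronic, 3 at promoters and 1 in the coding exon of pks-1. The tallest, chrX:11093994-11094360, had signals of 391.5 and 310.6 in replicates 1 and 2. It lay between W04G3.11 and W02H3.3, which are convergent and 6082 bp apart, and held 2 copies of the core. The second, chrX:4209113-4209446, lay between F20B6.9 and hpk-1, a homeodomain-interacting protein kinase gene, with 641.5 in the conservative list, 350.8 in replicate 1 and 284.5 in replicate 2. The intronic peak in mom-1, whose product is needed for Wnt secretion, had 635.0, with 338.0 and 272.2 in the replicates. The intronic peak in Y41G9A.17 had 629.0, with 366.4 and 225.5. The peak at nspc-17 had 617.2, with 336.4 and 243.8.

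Other lists of the series gave similar counts for the core. It was at 16 X summits and 0 autosomal summits of the other thresholded list, at 15 X and 2 autosomal summits in replicate 1, and at 14 X and 1 autosomal summit in replicate 2. In the longer ranked lists it was at 23 of 3121 X summits (0.737%) and 16 of 15491 autosomal summits (0.103%) in replicate 1, and at 23 of 5261 X summits (0.437%) and 16 of 25873 autosomal summits (0.0618%) in replicate 2. In those longer lists, which hold weaker peaks, the core was found at autosomal summits as well. Equal windows tiled along the chromosomes held it in 0.0553% on the autosomes and 0.0851% on X. The autosomal share in the ranked list of replicate 2 was close to that of the tiled windows.

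The other short sequences were searched within 100 bp of the summits in the same way. TGCGTCTC was at 42 X summits (14.2%), against 16.7% of autosomal summits and 16.4% over all peaks, and at 0.568% of windows tiled along X. The GA repeat GAGAGAGA was at 33 X summits (11.2%), against 12.8% on the autosomes and 12.6% over all peaks, with 1.12% of tiled X windows. GGGCGG, the GC box, was at 27 X summits (9.15%), against 10.5% on the autosomes and 10.4% over all peaks, with 2.45% of tiled X windows. The intervals for X and the autosomes overlapped for each of these. By class, TGCGTCTC was at 16.6% of X promoter summits and 13.2% of autosomal ones, and GAGAGAGA at 8.28% of X promoter summits and 7.31% of autosomal ones. At intergenic summits TGCGTCTC was found in 12.4% on X and 27.8% on the autosomes, and GAGAGAGA in 16.5% on X and 28.1% on the autosomes.

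Base composition differed as well. The 201 bases around X summits had a GC content of 47.9% ± 6.28 (SD, n = 295 summits) and their flanks 34.8% ± 5.28, and the summit window was richer in GC than its flanks at 280 of 295 X summits (94.9%). The autosomal summits had 43.3% ± 7.33 (SD, n = 1848), their flanks 36.8% ± 5.64, and 71.6% were richer than their flanks. The whole of X has 35.2% GC and the autosomes 35.5%. Whether GC content bears on the share of peaks with the core, which is itself rich in GC, was not tested.

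**Figure D4:**
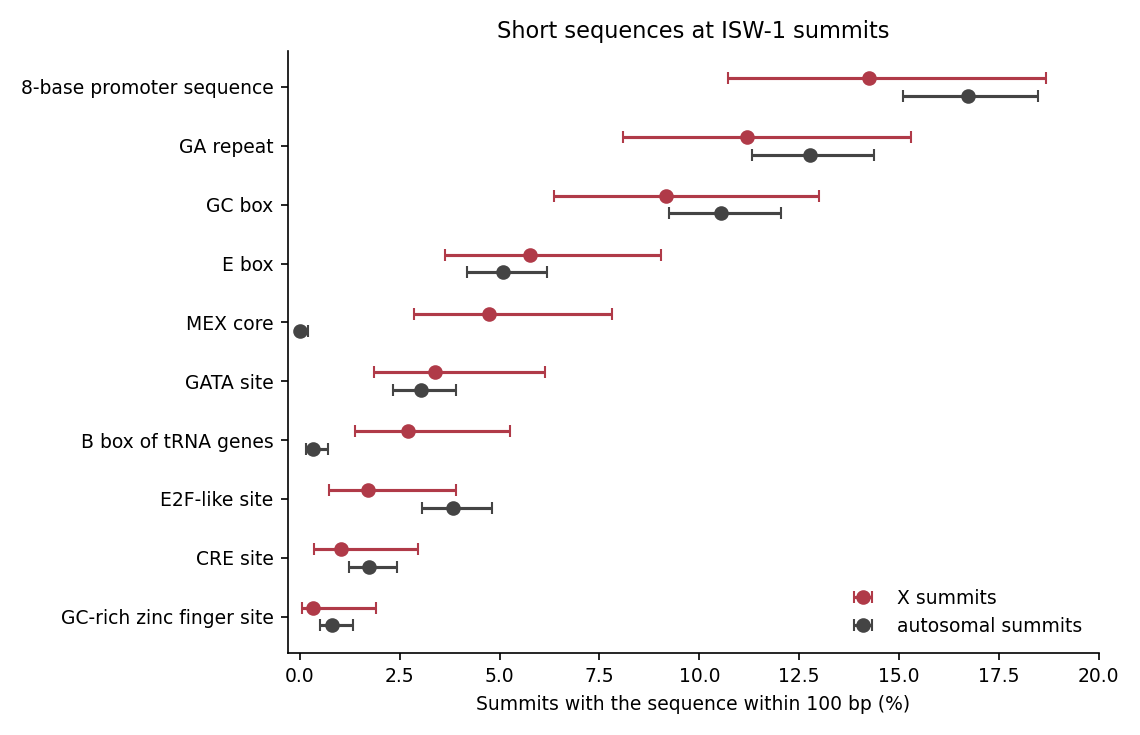
Share of X summits (red) and autosomal summits (black) with each of 10 short sequences on either strand within 100 bp (percent, 95% Wilson intervals), ordered by the X share. The MEX core was at 4.75% of X summits and 0 autosomal summits, the B box of tRNA genes at 2.71% of X summits and 0.325% of autosomal summits, and for the other sequences the intervals of X and the autosomes overlap. All values are from the conservative list, and for the B box the intervals overlap in the list of replicate 2.

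A second group of X peaks outside promoters lay at tRNA genes. X has 276 annotated tRNA genes, or 15.6 per Mb, beside 4.07 per Mb on the autosomes. A summit was within 1000 bp upstream to 500 bp downstream of the start of 40 of them (14.5%), beside 12.2% of the 336 autosomal tRNA genes and 13.2% of all, so the share of genes was close to that of the whole genome. Several tRNA genes can share a summit, and 33 X summits accounted for the 40 genes.

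Those 33 summits were 20 intergenic, 10 intronic and 3 in promoter windows of protein-coding genes, so that 30 of the 150 X summits outside promoters were beside a tRNA gene. The matching share of autosomal summits was not counted, so this is not given as a trait of X. They sat close to the gene: 29 were within 100 bp of a tRNA start, 16 within 150 bp upstream, and the median position was 2 bp upstream. Their signal had a median of 157.9, against 167.1 for the other 262 X peaks, and ran between 89.48 and 621.2. In all, 25 were in both replicates' lists, 5 in replicate 1 alone, 2 in replicate 2 alone and 1 in neither.

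The highest of them near a start was at F41D9.t3, 39 bp upstream of the gene and within an intron of sulp-3, which encodes an anion transporter of the sulphate permease family. Its signal was 455.4, with 257.7 in replicate 1 and 191.2 in replicate 2. C28G1.t1 followed at 416.0, with the summit 109 bp upstream and also in the promoter windows of C28G1.2 and sec-15, an exocyst subunit. A summit between the divergent tRNA genes C53C7.t1 and C53C7.t2, which lay 78 bp and 53 bp from it, had 332.0, with 211.0 and 117.1 in the replicates. The window of C18A11.t2 also took in the peak at chrX:8036253-8036668, whose summit holds the MEX core and lies 320 bp downstream of that tRNA start. The B box sequence GTTCGAATC, part of the internal promoter that RNA polymerase III uses, was at 8 X summits (2.71%, interval 1.38 to 5.26), against 6 of 1848 autosomal summits (0.325%, 0.149 to 0.707) and 0.653% over all peaks, and all 8 were beside a tRNA gene. In the list of replicate 1 it was at 6 of 291 X summits (2.06%, 0.948 to 4.42) and 3 of 1799 autosomal ones (0.167%, 0.0567 to 0.489). In that of replicate 2 it was at 3 of 239 X summits (1.26%, 0.428 to 3.62) and 5 of 1517 autosomal ones (0.330%, 0.141 to 0.769), where the intervals overlap, and among the 1071 taller peaks of the conservative list it was at 0.820% of X summits and 0.316% of autosomal ones.

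Other short RNA genes held few X peaks. Of 74 microRNA genes on X, 6 (8.11%) had a summit in the window, beside 8.56% on the autosomes and 8.43% in all. A summit in an intron of F09A5.3, with signal 414.5, was 244, 414 and 551 bp upstream of mir-54, mir-55 and mir-56. Of the 33 snoRNA genes on X, 6 (18.2%) had a summit, beside 26.8% on the autosomes and 26% in all, led by T27A8.8 at 504.4 and W01H2.11 at 388.1, then D2021.6 at 211.2 and F54E4.17 at 120.6. A single one of 3 snRNA genes on X, M163.13, had a summit, 38 bp upstream with signal 168.6 and present in replicate 2 alone, and 14% of all snRNA genes had one. The remaining microRNA genes with a summit were mir-62 at 98.35, and mir-239a and mir-239b, which share a summit of signal 86.66.

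Promoter summits fell at 159 of the 2731 protein-coding genes of X (5.82%), and 10% of all protein-coding genes had one. On single autosomes the share ran between 6.21% on V, close to that of X, and 16.4% on III. Of the 159, 114 rested on a peak present in both replicates' lists, 26 on replicate 1 alone, 7 on replicate 2 alone and 12 on neither. The 25 with the highest signal had 372.7 or more in the conservative list. All 25 overlapped a peak of each replicate's list, and their summits lay 8 to 701 bp upstream of the start.

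The members of the 25 not yet described had signals between 372.7 and 577.7. The highest was zfp-3, a zinc finger gene. vha-12, a subunit of the vacuolar proton pump, had 546.9, with 329.5 in replicate 1 and 220.2 in replicate 2. epg-7, an autophagy scaffold gene, had 541.0, and ftt-2, which encodes a phosphoprotein-binding adaptor, had 517.3. For ftt-2 the signal was 385.1 in replicate 1 and 161.5 in replicate 2. F02C12.3 had 516.6 and acl-1, an acyltransferase-like gene, 467.1. A summit of 465.1 was shared by glit-1, a gliotactin homologue, and dnj-14, a J-domain co-chaperone. The rest were ZC506.1 (441.3), uggt-1 (420.5), C28G1.2 and sec-15 (416.0), dpy-23 (the mu subunit of a clathrin adaptor, 413.5), C14A11.9 (397.2), hst-2 (a heparan sulphate sulphotransferase, 391.2), pdi-6 (a protein disulphide isomerase, 387.3), cebp-1 (a bZIP transcription factor, 384.4) and F17E5.2 (372.7).

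In the list of dosage compensation and sex determination genes, 1 of the 6 members on X had a promoter summit and 3 of the 15 on autosomes. It was ceh-39, a homeobox gene that counts as an X signal in sex determination, with a summit 199 bp upstream and signal 204.7 (134.8 in replicate 1 and 69.87 in replicate 2). For xol-1, the switch gene that those signals repress, 2 summits lay 4671 and 4876 bp upstream, past the promoter window, with signals of 151.6 and 621.2. The nearest summit was 7949 bp from the start of sex-1, a nuclear receptor gene, 57786 bp from that of fox-1, an RNA-binding protein gene. It was 49265 bp from the start of sdc-2 and 65852 bp from that of sdc-1, which both act in bringing the dosage compensation complex to X.

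For comparison with each gene list, 5.82% of all protein-coding genes on X and 10.66% of those on autosomes had a promoter summit. Housekeeping lists had few members on X. Of the ribosomal protein genes, rpl-11.2 and 1 other lie on X, and rpl-11.2 alone had a promoter summit, beside 69 of 78 on autosomes (88.5%). Of the translation factors 1 of 3 on X had one (eef-1A.2), beside 25 of 39 on autosomes, and of the heat shock and folding genes 2 of 5 (hsp-3 and dnj-14), beside 25 of 60. Genes of oxidative phosphorylation had summits at 5 of 6 X members, beside 15 of 38 on autosomes, and the 4 highest were sdha-1 (211.2), asb-2 (202.6), ucr-2.2 (183.2) and asg-2 (173.3). By each replicate's own list, 4 of the 6 had a promoter summit in replicate 1 and 5 in replicate 2. The lists used here for mitochondrial ribosomal proteins, splicing factors, proteasome subunits and the germline had no member on X. The gene lists are not complete. For instance, snrp-40.1 lies on X and is not in the splicing list, and it had a promoter summit with signal 205.8.

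Other lists had more members on X. Nuclear hormone receptors had promoter summits at 4 of 27 on X (14.8%), beside 4 of 247 on autosomes (1.62%), with nhr-48 at 313.5, nhr-3 at 156.1, nhr-1 at 150.7 and nhr-32 at 112.5. Homeobox genes had 1 of 26 (ceh-39), neuropeptides 1 of 37 (ins-39, 330.4, one of the 14 peaks with the core), acetylcholine receptors and other ligand-gated channels 1 of 29 (glr-6, 173.3, which shares its summit with asg-2) and muscle structure genes 1 of 16 (act-4, 167.5). Single members were found for bHLH genes (mdl-1, 370.3, of 9), chromatin regulators (lin-15B, 104.9, of 9), synaptic vesicle release (syd-2, 163.7, of 8), heterochronic genes (ain-1, 292.9, of 5), insulin and nutrient signalling (akt-2, 93.32, of 8) and cytochrome P450 and UDP-glucuronosyltransferase genes (ugt-50, 98.35, of 11). The peaks of lin-15B, syd-2 and akt-2 were in replicate 1 alone, and that of ugt-50 in neither list. The gene bet-2, which is not in the list of chromatin regulators, had a promoter summit with signal 353.0, present in both replicates' lists.

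In the conservative list no summit was found at the promoters of 20 potassium channel genes (egl-36 and irk-1 among them), 30 cuticle collagens (such as col-164 and col-165), 34 chemoreceptors (such as odr-10 and sra-37), 17 F-box genes (such as fbxa-120 and fbxa-141), 16 genes of axon guidance and adhesion (such as efn-3 and lin-18), 12 of intestine and yolk (such as asp-3 and cpr-6), 3 C-type lectins (such as clec-265 and clec-266) or 2 calcium and sodium leak channels (cca-1 and unc-2). On autosomes the counts were 0 of 50 potassium channels, 7 of 146 collagens, 10 of 1331 chemoreceptors, 8 of 305 F-box genes, 4 of 53 guidance genes, 0 of 29 intestinal genes, 2 of 237 lectins and 2 of 10 leak channels. In the replicates' own lists 1 X collagen gene had a promoter summit in replicate 2 and 1 X F-box gene had one in replicate 1. Over all protein-coding genes of X the share was 5.82%, so a count of 0 in lists this small is not given as a trait of a list. The counts of single lists are small, and none was tested.

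The tallest intergenic peaks without the core lay between genes that were 7728 and 11105 bp apart. Those at chrX:9465693-9466029, between ZK899.6 and gap-2, and chrX:13700667-13701010, between adm-2 and K02D3.1, had signals of 614.4 and 580.9. The first had 376.9 and 220.1 in replicates 1 and 2, and the second 337.6 and 246.8. Neither had the core within 100 bp of its summit or a tRNA gene beside it, and the nearest gene starts were 2530 and 6061 bp away. Among intronic peaks, those at F41D9.t3 and upstream of mir-54 came next after the pair with the core, and then one in rme-4, an endocytosis gene, at 344.9, with 223.4 and 123.6 in the replicates.

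The 52 intronic summits lay in 45 genes, of which 6 held more than one, a count made after the values were seen. There were 3 in unk-1 and 2 each in ZK1193.2, ZK470.2, kin-20, lin-14 and scd-1. The pair in ZK1193.2 and a pair of those in unk-1 are overlapping peaks that match the same replicate peaks, so each pair is 1 region. The pair in lin-14, a heterochronic gene that sets early larval fates, had signals of 226.0 and 108.0.

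Along the chromosome the summits were spread from end to end. With X divided into 3 equal lengths there were 95, 88 and 112 summits from left to right, or 16.1, 14.9 and 18.96 per Mb. The middle length held 29.8% of the X summits, and on the autosomes it held between 35.6% on II and 42.2% on V. Per 100 protein-coding genes the 3 lengths had 10.9, 9.02 and 12.7 summits. With X divided into 10 equal lengths, the most summits were in the eighth (38) and the ninth (42), and the fewest in the sixth (20). The ninth length had 69.05% of its summits in promoter windows and the last had 32.0%.

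**Figure D5:**
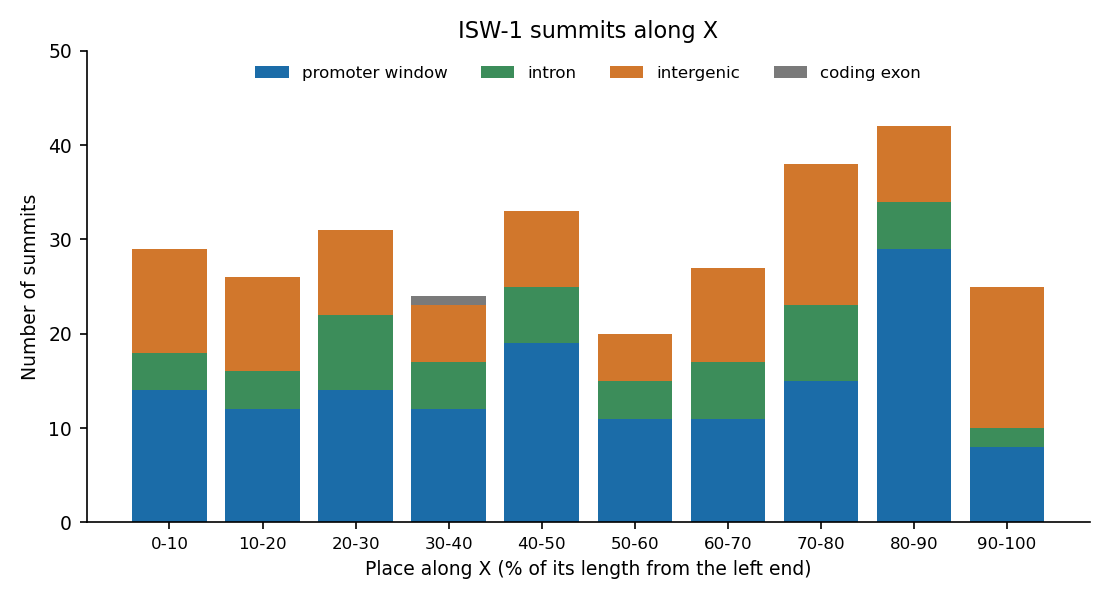
Number of ISW-1 summits in each of 10 equal lengths of X from its left end, stacked by class. The ninth length has the most, 42, of which 29 are in promoter windows, and the last has 25, of which 8 are.

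Neighbouring X summits were a median of 37784 bp apart, and 9 pairs were within 1000 bp and 66 within 10000 bp. The longest stretch without a summit was 385735 bp, between one upstream of trk-1 and one upstream of apa-2, with 57 protein-coding genes inside it. The densest 50000 bp held 6 summits within 16743 bp, from C34D10.5 to xol-1: 3 in introns of unk-1, with 136.5, 109.2 and 48.13, then the promoter of C34D10.1 with 132.7, and the pair of overlapping peaks upstream of xol-1. That pair shares the same replicate peaks, with 387.7 in replicate 1 and 206.9 in replicate 2, as do the lower pair in unk-1, so the 6 summits are not 6 separate findings. The tRNA genes C18A11.t2 and C18A11.t1 lie beside the pair.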

How the data were processed

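ISW-1 was measured by ChIP-seq in 2 biological replicates of 1 condition. The authors deposited 8 peak lists on ce11, without headers. The deposited signal value of each peak is the enrichment its caller gave, the deposited score was not used, and the deposited −log10 columns hold a q value, not used, and in ranked lists the irreproducible discovery rate (IDR). From the values, the conservative list holds peaks with a global IDR of at most 0.00997. The aligner, the caller and the control are each not given in the sources used here. The series' ranked lists also hold 16 columns of per-sample values that match no replicate's label, and these were left unused. Depth is unknown.

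Summits were placed on Ensembl release 115 genes and RefSeq WBcel235 sequence, with promoter windows first, then untranslated and coding exons, introns and intergenic sequence. All 276 X tRNA names came from RefSeq by position. Overlaps (at least 1 bp) took the highest peak, and bedtools 2.31.1 gave the same counts of X peaks. With 1 condition and 2 replicates no test was made. Intervals are 95% Wilson intervals and the limit on a count of 0 uses 3 counts, so both cover counting error only. Python 3.11.15, pandas 2.3.3 and scipy 1.17.1 were used, and the scripts were tested on simulated peaks.

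Named genes are the 25 promoters with the highest signal, the 5 highest intronic and intergenic peaks, the 5 highest in neither replicate's list, up to 4 members of each of 28 gene lists (the first 2 by name where none had a summit), up to 4 genes of each short RNA class, the sex determination genes, and those at the longest gap and densest stretch. The members, the gene lists and the 10 sequences were chosen with earlier results of these data known. Alternatives were the other list, the taller peaks alone, each replicate by itself, other windows, starts, overlaps and parts of X.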

Additional observations from a re-analysis of the deposited data

How the results depend on the processing

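The lower promoter share of X kept its direction in every alternative run: X minus autosomes was -19.73 percentage points as reported and ran from -22.9 (window 500 bp upstream to 250 bp downstream) to -15.43 (2000 bp to 1000 bp). The higher intergenic share ran from 12.29 to 21.79 points. Among the 1071 peaks of higher signal X had 122 peaks, 11.4% of the total, with 55.7% at promoters, 12.3% in introns, 73 bound protein-coding genes, and the core GCGCAGGG at 9.84%, TGCGTCTC at 22.1% and GTTCGAATC at 0.820% of X summits. With the narrow window 36.9% of X summits were at promoters and 44.4% intergenic, with the wide one 62.7% and 22.03%. With the start of any transcript 54.9% were at promoters and 11.9% in introns. Within 50 bp of the summit TGCGTCTC was at 10.2%, GAGAGAGA at 5.76% and GTTCGAATC at 0.339% of X summits, and over whole peaks GAGAGAGA was at 15.6%. Requiring an overlap of 50% of both peaks left 77.97% of X peaks in replicate 1 and 65.1% in replicate 2. In single replicates' lists the intronic share ran between 13.39% and 16.49%, and GTTCGAATC between 1.255% and 2.062%. In all, 82 alternative values stayed within the limits set (the interval of a share, 1.5 times for a count, the direction for the ratio of median signals) and 26 did not. No paired analysis was possible because the result comes from no test and there is 1 group.

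Limits are the absence of read counts, input values and a comparison condition: signal could not be recomputed, and shares on X and the autosomes carry no error between animals beyond the 2 replicates. The peaks' positions come from the authors' calls, and the annotation decides which summits count as promoter summits.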

Other observations

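In the ranked list that the conservative list was drawn from, 17 peaks passed the IDR threshold of 0.01 without being in the conservative list, and 4 of them were on X. The peak at chrX:15811038-15811136 had a signal of 1297, above every listed X peak, and lay 6937 bp from the start of Y7A5A.7. A second beside it, chrX:15808004-15808379, had 223.6. The others were chrX:293258-293633, near R57.2, with 384.5, and chrX:11785635-11786010, near Y102F5A.1, with 196.8. In the same way 3 X peaks of replicate 1 and 6 of replicate 2 passed the threshold in the ranked list without being in that replicate's thresholded list, and the counterpart of the first had 398.4 in replicate 1 and 996.8 in replicate 2. None of the 4 held the MEX core within 100 bp of its summit.

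The 3 X peaks just inside the threshold had a global IDR of 0.00955, 0.00945 and 0.00925 and signals of 85.22, 85.57 and 80.52. The 3 just outside had 0.0111, 0.0117 and 0.0122 and signals of 64.93, 118.1 and 76.08. Of 1912 ranked X peaks 15.4% were in the conservative list, beside 18.98% of the autosomal ones.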
